A study of Mus musculus with 12 samples.

Results

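Transcripts of macrophages sorted as erythroblastic niche macrophages were compared with those of general macrophages from the same kind of tissue, mouse bone marrow carrying breast cancer metastases. The comparison rests on 6 of the 12 libraries of the series, 3 per population, and was described across all 12882 genes that passed the filter on low counts, out of 18467 in the table. Bone metastases were made by injecting E0771, a mouse breast cancer cell line, into the caudal artery of female Albino B6 mice that were 8 weeks old. Femur and tibia marrow was freed of red cells with a lysis buffer, and single live cells were sorted by flow cytometry. The general sort took cells carrying CD11b and F4/80, and the niche sort took cells carrying VCAM1 together with CD163 and CCR3. The design text calls the second sort niche-specific, while the titles of the samples use the word general for both, so the antigens were taken to define the populations. The 3 replicates of a population came from different mice. The same 2 sorts from healthy control mice, 3 libraries each, served for comparison.

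Macrophages of the erythroblastic island hold developing red cells through adhesion molecules such as VCAM1, supply them with iron and growth factors, and engulf the nuclei that they expel. Iron recovered from engulfed haem by haem oxygenase leaves the macrophage through ferroportin. Resident marrow macrophages also clear dying cells with receptor tyrosine kinases and scavenger receptors, whereas CD11b and F4/80 are shared with monocytes and, for CD11b, with neutrophils.

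The 6 libraries held between 18565100 and 30332400 counts. Their replicates differed widely: 25.6% of tested genes had at most 3 counts in one niche library and at least 100 in another, and 16.6% did so among the general libraries. Taken across genes, which are no independent replicates, Pearson's r of log2(CPM + 1) was 0.828 to 0.858 between general libraries and 0.704 to 0.754 between niche libraries. Between the populations r was 0.699 to 0.724 for niche replicate 1, 0.726 to 0.748 for replicate 2 and 0.767 to 0.796 for replicate 3. Niche replicate 3 thus correlated more highly with every general library than with either niche library (0.735 and 0.754), and replicate 2 more highly with every general library than with niche replicate 1 (0.704). The count of called genes is therefore also given without each of these libraries.

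In niche macrophages, 74 genes were higher (0.574% of tested genes) and 33 were lower (0.256%), 107 in all (0.831%; edgeR's quasi-likelihood test, Benjamini-Hochberg adjusted p under 0.05, called from here on). The genes called higher were led by Itgad, Slc1a3, Fabp4, Epb41l3 and Fcna, and included Mertk and Axl, Hmox1 and Slc40a1, the class II genes H2-Ab1 and H2-Aa, and red cell and plasma cell transcripts. Those called lower were led by P2ry1, Capn2, Fn1, F13a1 and Ccr2, and included other monocyte and neutrophil markers and Actb. In each of the 107 genes the 3 niche libraries lay wholly above or below the 3 general libraries, which was the case for 17.2% of all tested genes (8.34% above and 8.85% below). All 107 had a mean of at least 10 CPM, which are counts scaled to library totals adjusted by trimmed mean of M values (TMM). An unadjusted p under 0.05 was found for 520 higher and 588 lower genes, 8.60% of those tested.

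**Figure D1:**
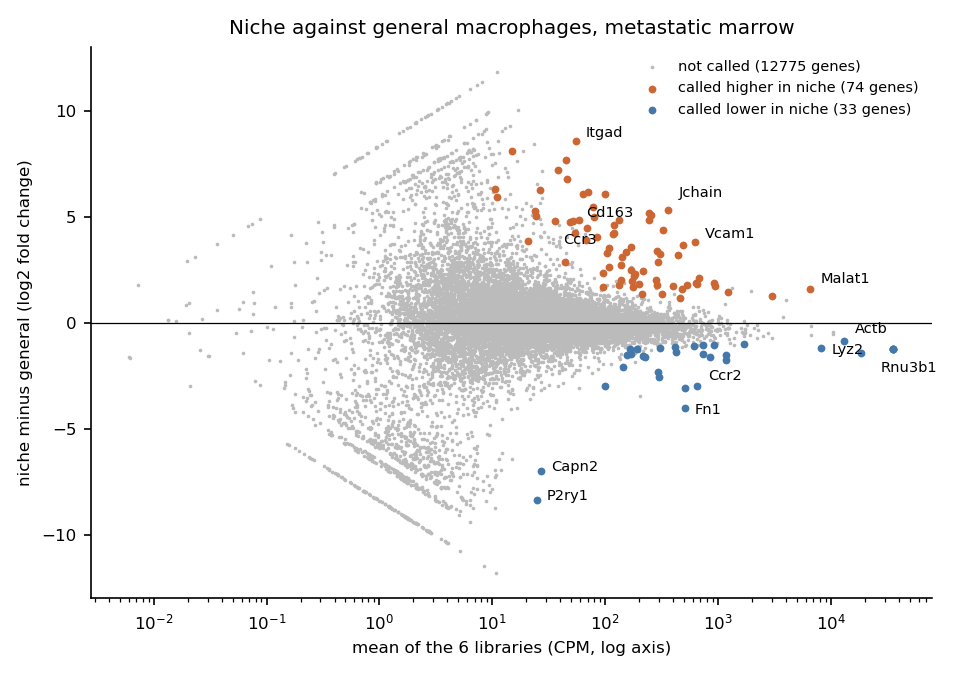
Log2 fold change of niche minus general macrophages in metastatic marrow (vertical axis) against the mean of the 6 libraries in CPM (horizontal log axis), 1 point per tested gene. The 74 genes called higher and the 33 called lower sit at means of at least 10 CPM, and the spread of the uncalled genes widens towards low means.

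Leaving out niche replicate 1 lowered the count of calls from 107 to 66, and leaving out general replicate 2 lowered it to 70. Without niche replicate 3 the count was 83, of which 78 were among the 107, and without niche replicate 2 it was 77. Of the 107 genes, 58 kept their call whichever single library was left out, and 4 kept it in none of these 6 fits. DESeq2 called 480 genes (3.73%), 288 higher and 192 lower, among which were 105 of the 107, and limma-voom called 178 (1.38%), among which were 72. The 35 that limma-voom did not call were the genes of U3 small nucleolar RNA (Rnu3a and Rnu3b1 to Rnu3b4) and Actb, Anxa2, Axl, C1qb, Capn2, Ccr2, Cd5l, Cxcr2, Fcna, Fn1, Fosb, Gm44860, Igha, Igkc, Jchain, Kcna2, Lpin2, Lyz2, Malat1, Myadm, Pax5, Pld3, Retnlg, Slc4a1, Slc9a9, Spic, Tanc2, Tmcc2, Tmem26 and Tpm4. A fit on the 6 metastatic libraries alone called 97 genes, 73 of them among the 107. Siglec1, Slc1a3 and Xist, which kept their calls whichever library was left out, did not pass in it (edgeR adjusted p = 0.0652, 0.0734 and 0.0705).

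Values in single libraries are given in CPM in the order of replicates 1, 2 and 3, and standard errors (SE) belong to log2 fold changes of niche against general macrophages, with 3 libraries per group. Counts of called genes in a list stand beside 0.574% of all tested genes called higher and 0.256% called lower. Of the 5 genes of the sorting antigens, 3 were higher in niche macrophages. Vcam1, the adhesion molecule that binds integrins on erythroblasts, stood at 92.5, 67 and 87.6 CPM in general and 1620, 938 and 938 CPM in niche macrophages. Cd163, the receptor for haptoglobin bound to haemoglobin, stood at 13.1, 17.5 and 8.31 CPM against 789, 297 and 344 CPM. Ccr3, a receptor for eotaxin chemokines best known from eosinophils, stood at 15, 19.8 and 17.1 CPM against 316, 118 and 168 CPM. The groups were far apart for all 3 transcripts, and niche replicate 1 was the highest library each time. The log2 fold changes were 3.82 ± 0.29 for Vcam1 (SE; edgeR adjusted p = 7.69e-07), 5.20 ± 0.79 for Cd163 (edgeR adjusted p = 0.00115) and 3.54 ± 0.40 for Ccr3 (edgeR adjusted p = 3.70e-05). Since the cells were sorted on these proteins, the 3 transcripts check the labels and are no separate finding.

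The antigens of the general sort did not separate the populations in the opposite sense. Adgre1, which encodes F4/80, stood at 70.4, 118 and 64 CPM in general and 262, 144 and 164 CPM in niche macrophages, without overlap and with a value of 1.18 ± 0.33 on the log2 scale that did not pass (edgeR adjusted p = 0.166). Itgam, which encodes CD11b, stood at 513, 576 and 503 CPM against 330, 364 and 567 CPM. Niche replicate 3 lay inside the general range for Itgam (log2 fold change -0.34 ± 0.26; edgeR adjusted p = 0.974).

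Among genes of erythroblast contact and island support, Igf1 and Siglec1 were called higher. Of the 16 tested, 13 had a log2 fold change above 0, and the median was 1.44, against 0.04 over all tested genes. Igf1, the insulin-like growth factor that promotes growth of many cell types, stood at 11.1, 9.4 and 15.4 CPM in general and 295, 203 and 187 CPM in niche macrophages (log2 fold change 4.25 ± 0.37; edgeR adjusted p = 2.56e-06). Siglec1, the sialic acid receptor CD169 of resident macrophages, stood at 19, 0.542 and 16.6 CPM against 262, 241 and 163 CPM (4.20 ± 0.75 on the log2 scale; edgeR adjusted p = 0.00536). General replicate 2 was far below the other general libraries for Siglec1, while the niche libraries lay close together. Kitl, the ligand of the KIT receptor of early blood cells, had 90.1, 23.7 and 39.8 CPM in niche macrophages against at most 4.6 CPM in the general libraries, and did not pass (edgeR adjusted p = 0.0895). The growth factor gene Pdgfc did not pass either, with 87.4, 49.3 and 41.8 CPM against 0.292, 9.54 and 2.56 CPM (edgeR adjusted p = 0.300). Itgav, whose integrin binds on island macrophages to a ligand on erythroblasts, had 0.74 ± 0.30 on the log2 scale (edgeR adjusted p = 0.523).

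The transcription factors Maf and Spic were called higher, out of 25 macrophage transcription factors tested. Maf, a factor of resident macrophages, stood at 8.68, 7.68 and 10.2 CPM in general and 239, 350 and 187 CPM in niche macrophages. The libraries within each population lay within a narrow range for Maf, and the log2 fold change of 4.87 ± 0.42 had an edgeR adjusted p of 2.56e-06. Spic, which is induced by haem and needed for iron-recycling macrophages, stood at 9.89, 3.3 and 3.07 CPM against 197, 63.9 and 48.5 CPM (4.25 ± 0.82 on the log2 scale; edgeR adjusted p = 0.0117). The call of Spic was lost in 3 of the 6 fits that left out a library, those without niche replicate 1 (edgeR adjusted p = 0.0898) and without general replicate 2 or 3 (edgeR adjusted p = 0.0996 and 0.0900). Irf4, an interferon regulatory factor, had a log2 fold change of 2.71 ± 0.66 that did not pass (edgeR adjusted p = 0.0645). The median of the list was 0.64.

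Itgad had the highest fold among the called genes. It encodes the alpha D subunit of a beta 2 integrin, which is made by macrophages that engulf red cells and binds VCAM1 among other ligands. It stood at 0.255, 0.407 and 0.183 CPM in general and 189, 82.2 and 55.9 CPM in niche macrophages, or 5 to 9 counts per general library against at least 1513 per niche library. The log2 fold change was 8.58 ± 0.87 (edgeR adjusted p = 1.46e-05), and the call held in all 6 fits that left out a library. In GRCm38.p6 the gene spans chr7:128173933-128205504 and overlaps Cox6a2 on the opposite strand. The other tested integrin subunits did not pass, and the median of the 13, Itgad included, was -0.02. Itgal, a leukocyte integrin subunit, had -0.88 ± 0.31 (edgeR adjusted p = 0.405) and Itgb7 had -1.89 ± 0.82 (edgeR adjusted p = 0.544) on the log2 scale.

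Scavenger receptors and lectins contributed 4 genes called higher out of 19 tested, 17 of which had a log2 fold change above 0, with a median of 1.45. They were Cd163, which was higher by the sort, Mrc1, Fcna and Cd5l. Mrc1, the mannose receptor CD206, stood at 14.1, 2.17 and 32.2 CPM in general and 657, 349 and 410 CPM in niche macrophages (log2 fold change 4.87 ± 0.65; edgeR adjusted p = 0.000260). The secreted lectin ficolin A, encoded by Fcna, stood at 0.328, 1.81 and 0.293 CPM against 181, 26.5 and 65.2 CPM (6.82 ± 1.22; edgeR adjusted p = 0.00554). Cd5l, a secreted scavenger protein of tissue macrophages, stood at 0.474, 7.77 and 2.2 CPM against 173, 59.2 and 66.4 CPM (4.84 ± 0.99; edgeR adjusted p = 0.0181). For Mrc1, Fcna and Cd5l, niche replicate 1 was the highest library, and no niche library reached the general range. Cd5l lost its call without niche replicate 1 (edgeR adjusted p = 0.102) and without general replicate 1 or 3 (edgeR adjusted p = 0.0568 and 0.123).

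Mertk and Axl, receptor tyrosine kinases that recognise phosphatidylserine through bridging proteins, were called higher, 2 of 14 tested genes of apoptotic cell clearance. The other 12 did not pass, and the median of the 14 was 1.15. Mertk stood at 0.511, 0.542 and 4.39 CPM in general and 189, 88 and 99.6 CPM in niche macrophages (log2 fold change 6.10 ± 0.92; edgeR adjusted p = 0.000993). For Axl the values were 50.6, 4.84 and 33.4 CPM against 1060, 341 and 472 CPM (4.40 ± 0.69; edgeR adjusted p = 0.00156). Timd4, a phosphatidylserine receptor of resident macrophages, had between 469 and 550 counts in each niche library and 1 or 2 in each general library. It stood at 26.1, 24 and 17.3 CPM in niche macrophages, and did not pass (edgeR adjusted p = 0.114). Stab2, another receptor of this group, rested on 1 library, with 33.3 CPM in niche replicate 1 and 0.0874 and 1.96 CPM in the other niche replicates (edgeR adjusted p = 0.391).

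The complement list held 1 called gene in each direction among 13 tested, with a median of 0.40. C1qb, a chain of the recognition molecule C1q, stood at 15.5, 0.407 and 9.15 CPM in general and 167, 123 and 88 CPM in niche macrophages (log2 fold change 3.91 ± 0.85; edgeR adjusted p = 0.0297). C5ar1, the receptor for the C5a fragment, stood at 427, 729 and 561 CPM against 281, 264 and 244 CPM (-1.12 ± 0.26; edgeR adjusted p = 0.0412). The call of C1qb was lost without niche replicate 1 or 2 or general replicate 3 (edgeR adjusted p = 0.127, 0.0736 and 0.133), and that of C5ar1 in 5 of the 6 fits that left out a library. C1qa had 74.9, 12 and 64.1 CPM in niche macrophages against 0.255, 0.497 and 7.98 CPM and did not pass (edgeR adjusted p = 0.404). C4b, with 72, 24.5 and 14.9 CPM against at most 0.22 CPM, did not pass either (edgeR adjusted p = 0.232).

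Of 22 tested genes of haem and iron handling, 3 were called higher, namely Hmox1, Slc40a1 and Trf, and the median was 0.58. Hmox1, haem oxygenase 1, stood at 51.8, 61.1 and 59 CPM in general and 835, 422 and 404 CPM in niche macrophages (log2 fold change 3.27 ± 0.32; edgeR adjusted p = 9.70e-06). Slc40a1, the iron exporter ferroportin, stood at 326, 221 and 266 CPM against 1260, 798 and 948 CPM (1.89 ± 0.24; edgeR adjusted p = 0.000153). Trf, the iron carrier transferrin, stood at 29.3, 2.89 and 25.1 CPM against 223, 172 and 179 CPM (3.33 ± 0.55; edgeR adjusted p = 0.00284). Each of these 3 kept its call in the 6 fits that left out a library. The ferritin genes Fth1 and Ftl1, whose products store iron, had log2 fold changes of 0.74 ± 0.38 and 0.57 ± 0.39 that did not pass (edgeR adjusted p = 0.625 and 0.885). The haem transporter gene Slc48a1 had 0.59 ± 0.48 and did not pass either. Steap4, a metal reductase, was at 0 counts in the 3 niche libraries and at 10.2, 10.3 and 2.82 CPM in the general ones, and did not pass (edgeR adjusted p = 0.278).

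Red cell markers were higher in the same libraries, with 3 of 18 tested called. All 18 had a log2 fold change above 0, and their median was 4.15. The summed level of all 19 listed erythroid markers ranged from 91.6 to 128 CPM in general and from 864 to 2100 CPM in niche macrophages. Slc4a1, the anion exchanger band 3 of the red cell membrane, stood at 4.2, 0.452 and 4.02 CPM against 269, 208 and 114 CPM (6.08 ± 0.74; edgeR adjusted p = 0.000107). The beta-globin gene Hbb-bs stood at 55.9, 71.9 and 20.3 CPM against 636, 667 and 272 CPM (3.41 ± 0.54; edgeR adjusted p = 0.00156). Car2, a carbonic anhydrase of red cells and osteoclasts, stood at 10.4, 9.76 and 8.49 CPM against 185, 175 and 115 CPM (4.05 ± 0.50; edgeR adjusted p = 0.000114). Niche replicate 3 was the lowest niche library for all 3. Ank1, the red cell ankyrin, had 70.8, 26.1 and 3.95 CPM against at most 0.073 CPM and did not pass (edgeR adjusted p = 0.0726). The part of red cell transcripts in the difference between the sorts was not tested, nor was that of plasma cell or B cell transcripts. In sorted bulk samples, more cells of a type and more RNA per cell cannot be told apart.

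**Figure D2:**
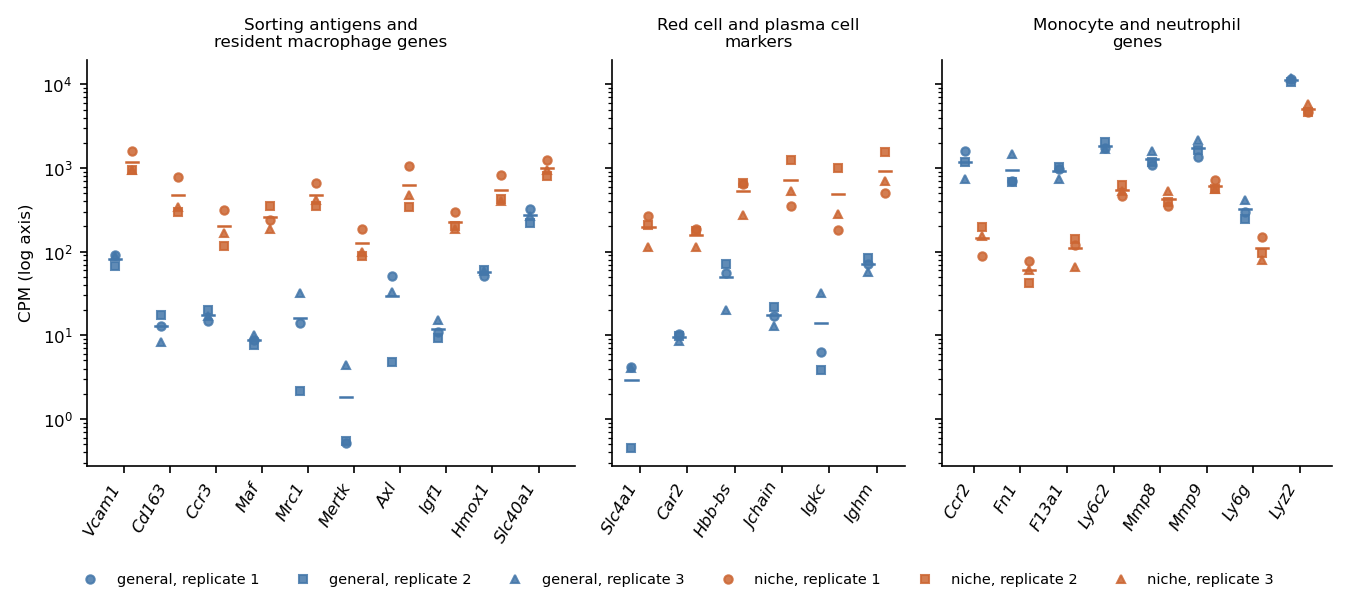
CPM on a log axis of 24 called genes in the 6 libraries from metastatic marrow, with symbols for replicates 1 to 3, colours for the population and bars for group means. For each gene the niche libraries lie wholly above (left and middle panels) or below (right panel) the general libraries.

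Lipid genes gave 3 calls higher and 1 lower among 21 tested, with a median of 0.91. Fabp4, a fatty acid carrier of macrophages and fat cells, stood at 0.292, 0.271 and 0.695 CPM in general and 164, 50.3 and 55 CPM in niche macrophages (log2 fold change 7.72 ± 1.44; edgeR adjusted p = 0.00813). The cholesterol exporter gene Abca1 stood at 26.2, 26.8 and 28.8 CPM against 309, 171 and 355 CPM (3.35 ± 0.38; edgeR adjusted p = 3.73e-05). Lpl, lipoprotein lipase, stood at 30.1, 41.8 and 16.2 CPM against 425, 144 and 186 CPM (3.10 ± 0.45; edgeR adjusted p = 0.000732). In the other direction, Alox5ap, which is needed for leukotriene synthesis, stood at 245, 311 and 457 CPM against 174, 91.4 and 72.8 CPM (-1.58 ± 0.36; edgeR adjusted p = 0.0411). Abca1 and Lpl kept their calls in the 6 fits without a library, whereas Fabp4 lost it without niche replicate 1 and without general replicate 1 or 2 (edgeR adjusted p between 0.0528 and 0.0672) and Alox5ap in 4 of them (between 0.128 and 0.258). Hpgds, the prostaglandin D synthase of blood cells, was also called higher, at 0.438, 2.21 and 3 CPM against 197, 115 and 104 CPM (6.20 ± 0.98; edgeR adjusted p = 0.00156).

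Of 27 tested lysosomal genes, the cathepsins B and D were called higher, and the median was 0.38. Ctsb stood at 214, 221 and 274 CPM in general and 1020, 636 and 527 CPM in niche macrophages (log2 fold change 1.62 ± 0.28; edgeR adjusted p = 0.00441). Ctsd stood at 271, 231 and 331 CPM against 807, 656 and 464 CPM (1.21 ± 0.25; edgeR adjusted p = 0.0205), and kept its call in 2 of the 6 fits without a library. Lgmn, the protease legumain, had 448, 224 and 209 CPM against 63.6, 28.9 and 49.2 CPM and did not pass (edgeR adjusted p = 0.126). Lipa, the lysosomal acid lipase, did not pass either (1.55 ± 0.46; edgeR adjusted p = 0.207).

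Several transporters and membrane proteins outside those groups had large differences. Slc1a3, a glutamate and aspartate transporter, stood at 0.255, 0.0452 and 0 CPM in general and 51.4, 23 and 15.9 CPM in niche macrophages (log2 fold change 8.13 ± 1.39; edgeR adjusted p = 0.00364). General replicates 2 and 3 were under the floor of 3 counts (0.136 and 0.11 CPM), so the size of that fold is uncertain. Kcna2, a voltage-gated potassium channel subunit, stood at 7.63, 1.36 and 1.13 CPM against 260, 124 and 73.1 CPM (5.49 ± 0.87; edgeR adjusted p = 0.00156). Epb41l3, which links membrane proteins to the cytoskeleton, stood at 0.328, 0.452 and 0.695 CPM against 149, 46.8 and 32.5 CPM (7.25 ± 1.12; edgeR adjusted p = 0.00128). All 3 kept their calls in each fit without a library. The organic anion transporter gene Slco2b1 (5.02 ± 0.87; edgeR adjusted p = 0.00395), the semaphorin gene Sema6d (4.89 ± 0.83; edgeR adjusted p = 0.00344), the sodium-proton exchanger gene Slc9a9 (5.06 ± 1.12; edgeR adjusted p = 0.0331) and Tmem26 (4.78 ± 0.84; edgeR adjusted p = 0.00441) were higher as well. So were the unconventional myosin genes Myo10 (4.51 ± 0.71; edgeR adjusted p = 0.00156) and Myo9a (2.33 ± 0.50; edgeR adjusted p = 0.0271) and the syndecan gene Sdc3 (3.58 ± 0.38; edgeR adjusted p = 1.97e-05). Of these 7, Slc9a9 was called in 1 and Myo9a in 3 of the 6 fits without a library, and the other 5 in all. Mast4, a kinase gene, and Tanc2 had log2 fold changes of 6.35 ± 1.35 (edgeR adjusted p = 0.0242) and 5.97 ± 1.25 (edgeR adjusted p = 0.0206), and each was called in 1 of the 6 fits without a library. Tanc2 stood at 3.48, 37.4 and 24.8 CPM in the niche libraries, so that replicate 1 was the lowest there. Gm44860, a transcript without an assigned function, had 6.31 ± 1.42 (edgeR adjusted p = 0.0380) and was likewise called in 1 of those fits.

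Selenop, the plasma carrier of selenium, was higher at 522, 541 and 505 CPM against 45.4, 87.7 and 77.8 CPM (log2 fold change 2.89 ± 0.30; edgeR adjusted p = 1.79e-05). The niche libraries were almost level for this gene. Ccdc152 overlaps Selenop on the opposite strand, at chr15:3280099-3303526 against chr15:3270767-3280510 in GRCm38.p6. It was called as well (3.21 ± 0.43; edgeR adjusted p = 0.000274), and without known strandedness the reads of the 2 genes cannot be told apart where they overlap. Selenop was the called gene among 16 tested for antioxidant and selenium proteins, where Cat, catalase, had 2.01 ± 0.88 (edgeR adjusted p = 0.544) and the glutathione peroxidase gene Gpx1 had -1.12 ± 0.51 (edgeR adjusted p = 0.562).

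Of 11 tested class II antigen presentation genes, H2-Ab1 and H2-Aa were called higher. These encode the beta and alpha chains of the I-A molecule, which presents peptides to helper T cells, and neighbour each other at chr17:34263227-34269418 and chr17:34282744-34287823. H2-Ab1 stood at 66.2, 48.1 and 39.7 CPM in general and 254, 243 and 367 CPM in niche macrophages (log2 fold change 2.49 ± 0.33; edgeR adjusted p = 0.000222). H2-Aa stood at 52.3, 61.4 and 97.4 CPM against 273, 287 and 268 CPM (1.97 ± 0.28; edgeR adjusted p = 0.000671). Of the 11 genes, 10 had a log2 fold change above 0, the median was 1.97, and 7 had niche libraries wholly above the general ones, against 8.34% of all tested genes. Cd74, the invariant chain, had 39.3, 35.4 and 80.5 CPM against 17, 16.8 and 28.1 CPM and did not pass (edgeR adjusted p = 0.523). B cells also express class II genes, and B cell markers moved with the sort: their summed level was 2.04, 6.96 and 26.1 CPM in general and 92.5, 179 and 331 CPM in niche macrophages. Their part in the class II difference was not tested. Of 9 class I genes, none was called by edgeR, DESeq2 or limma-voom, none had an unadjusted p under 0.05, and the median was 0.39. Over all tested genes, edgeR called 0.831%, and 8.60% had an unadjusted p under 0.05.

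The chemokine receptor genes Ccr2 and Cxcr2 were called lower, out of 9 tested. The 1 called higher was Ccr3, on whose protein the cells were sorted. Ccr2, through which inflammatory monocytes leave the marrow, stood at 1580, 1170 and 747 CPM in general and 87.9, 198 and 154 CPM in niche macrophages (log2 fold change -2.99 ± 0.32; edgeR adjusted p = 2.14e-05). Cxcr2, the receptor of neutrophil chemokines, stood at 194, 285 and 226 CPM against 80.6, 127 and 92.2 CPM (-1.23 ± 0.28; edgeR adjusted p = 0.0361), with the call lost in 5 of the 6 fits without a library. Cxcr4, the receptor that retains blood cells in the marrow, had 839, 783 and 595 CPM against 379, 576 and 465 CPM and did not pass (edgeR adjusted p = 0.523). For Ccr3, whose protein marks eosinophils, 8 tested eosinophil markers were all below 0 with a median of -1.81, none of them called, and the summed level of the 9 listed was between 160 and 265 CPM in general and between 7.87 and 122 CPM in niche macrophages. Prg2 and Epx, granule proteins that define eosinophils, had log2 fold changes of -1.88 ± 1.14 (edgeR adjusted p = 0.777) and -1.74 ± 1.13 (edgeR adjusted p = 0.840).

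Of 14 tested monocyte markers, 5 were called lower in niche macrophages and 13 had a log2 fold change below 0, with a median of -1.19. F13a1, a clotting factor subunit of monocytes, stood at 981, 1030 and 733 CPM in general and 120, 143 and 65.4 CPM in niche macrophages (log2 fold change -3.07 ± 0.31; edgeR adjusted p = 1.46e-05). For Fn1, the matrix protein fibronectin, the values were 702, 686 and 1470 CPM against 76.6, 42.2 and 60.5 CPM (-4.00 ± 0.43; edgeR adjusted p = 1.97e-05). Ly6c2, the surface antigen that marks inflammatory monocytes, stood at 1720, 2070 and 1670 CPM against 457, 634 and 531 CPM (-1.75 ± 0.26; edgeR adjusted p = 0.000784). The niche libraries were well below the general range in all 3. By limma-voom the adjusted p was 0.0638 for Fn1 and, of the receptors above, 0.0624 for Ccr2. The summed level of the list was nearly level within each population, between 7730 and 7860 CPM in general and between 2200 and 2400 CPM in niche macrophages.

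Of 19 tested neutrophil markers, 6 were called lower, and their transcripts were present in both sorts. The summed level was 29700, 33100 and 43200 CPM in general and 21800, 23000 and 23200 CPM in niche macrophages, and 18 had a log2 fold change below 0, with a median of -0.63. The secreted proteases Mmp8 and Mmp9 stood at 1080, 1180 and 1580 CPM against 349, 391 and 538 CPM (-1.59 ± 0.24; edgeR adjusted p = 0.00120) and at 1360, 1650 and 2180 CPM against 715, 559 and 566 CPM (-1.50 ± 0.22; edgeR adjusted p = 0.000983). Ly6g, the surface antigen that defines mouse neutrophils, stood at 301, 244 and 417 CPM against 151, 97.5 and 80.6 CPM (-1.55 ± 0.29; edgeR adjusted p = 0.00917). Camp, an antimicrobial granule peptide, stood at 985, 1080 and 950 CPM against 409, 517 and 532 CPM (-1.05 ± 0.21; edgeR adjusted p = 0.0161). For the resistin-like gene Retnlg (-2.56 ± 0.51; edgeR adjusted p = 0.0157), general replicate 3 stood at 1080 CPM and the other 2 at 222 and 233 CPM. Without that library its log2 fold change was -1.40 and did not pass (edgeR adjusted p = 0.166), nor did it pass without niche replicate 1, 2 or 3 (edgeR adjusted p = 0.0590, 0.114 and 0.0797). The most abundant markers did not pass: Chil3 stood at 11700, 11400 and 13600 CPM against 7290, 8680 and 9610 CPM (edgeR adjusted p = 0.382), and Ngp and Lcn2 overlapped between the populations (edgeR adjusted p = 0.508 and 0.523). Ly6g lost its call without niche replicate 2 or 3 or general replicate 3 (edgeR adjusted p between 0.0509 and 0.0736), and Camp without niche replicate 1 or general replicate 2 (edgeR adjusted p = 0.113 and 0.0973).

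Lyz2, the lysozyme of macrophages, monocytes and neutrophils, stood at 11700, 10700 and 11800 CPM in general and 4740, 4620 and 5780 CPM in niche macrophages (-1.17 ± 0.16; edgeR adjusted p = 0.000499). With the 6 metastatic libraries alone the edgeR adjusted p of Lyz2 was 0.113. It set the sum of the 10 pan-macrophage markers, which was between 11600 and 12700 CPM in general and between 5480 and 6890 CPM in niche macrophages. Among the 10, Mertk was called higher, 7 had a log2 fold change above 0, and the median was 0.92. Csf1r, the receptor for the macrophage growth factor, stood at 51.6, 66.3 and 136 CPM against 199, 83.5 and 118 CPM, with overlap (edgeR adjusted p = 0.931). Csf2rb, the shared receptor subunit for granulocyte-macrophage colony stimulating factor, did not pass by edgeR (-1.01 ± 0.31; adjusted p = 0.250).

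Matrix and clotting genes were called lower in 5 of 22 cases, namely F13a1, Fn1, Mmp8, Mmp9 and Thbs1, and the list had a median of -0.43. Thbs1, the matrix protein thrombospondin 1, stood at 287, 242 and 275 CPM in general and 124, 139 and 77.3 CPM in niche macrophages (log2 fold change -1.24 ± 0.26; edgeR adjusted p = 0.0202), a call lost in 3 of the 6 fits without a library. Of these 5, 2 are also monocyte and 2 neutrophil markers.

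P2ry1 had the lowest log2 fold change of the called genes, at -8.37 ± 1.62 (edgeR adjusted p = 0.0116). It encodes a receptor for ADP best known from platelets. It stood at 47.8, 63.1 and 36.7 CPM in general and 0.202, 0.0437 and 0.185 CPM in niche macrophages, so that each niche library was close to the floor of 3 counts, which lay between 0.111 and 0.151 CPM in these libraries. Capn2, a calcium-dependent protease, stood at 41.6, 85.1 and 34.6 CPM against 0.252, 0.612 and 0.407 CPM (-6.97 ± 1.45; edgeR adjusted p = 0.0206). P2ry1 lost its call without any 1 of the niche replicates (edgeR adjusted p between 0.0575 and 0.0736) and Capn2 in 5 of the 6 fits without a library, with the same direction and log2 values of at most -7.95 and -6.47 there. Adora2b, an adenosine receptor, showed a like pattern at 13.7, 28.5 and 21.1 CPM against 0, 3 and 0 counts, but did not pass (edgeR adjusted p = 0.207). The 13 tested purine receptors and ectoenzymes, with these 2 included, had a median of 0.36. P2ry1 is overlapped by Gm37035 on the opposite strand, so its reads are uncertain where the genes overlap.

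The 250 bases before the gene start are shown for Slc1a3 and P2ry1, the genes with the highest and the lowest fitted log2 fold change among called genes with a promoter in the RefSeq table (GRCm38.p6), both of them with libraries under the floor of 3 counts. Capitals would mark a match to one of the motifs searched, given in the next paragraph, and neither window held one.
Slc1a3, chr15:8710808-8711057, - strand: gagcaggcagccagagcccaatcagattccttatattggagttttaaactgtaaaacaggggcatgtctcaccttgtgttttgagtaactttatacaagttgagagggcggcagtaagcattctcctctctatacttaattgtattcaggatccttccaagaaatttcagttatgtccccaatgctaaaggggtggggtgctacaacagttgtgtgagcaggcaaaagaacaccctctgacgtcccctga
P2ry1, chr3:61002535-61002784, + strand: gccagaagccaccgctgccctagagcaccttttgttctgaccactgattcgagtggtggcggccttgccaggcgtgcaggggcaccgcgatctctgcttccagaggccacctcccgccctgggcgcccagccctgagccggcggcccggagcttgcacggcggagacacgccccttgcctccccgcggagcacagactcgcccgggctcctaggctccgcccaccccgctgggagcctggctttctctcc
In each case the window ends at the base before the first base of the RefSeq gene span. No match says only that these letters are not in the window.

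Promoters of 42 of the 74 genes called higher and 22 of the 33 called lower were in the RefSeq table, along with those of 8750 tested genes. The table lists 82 windows for the 64 called genes, and 42 of them precede a start inside the gene span rather than its first base. On either strand of the 250 bases, the antioxidant response element core (TGACNNNGC) was in 6 of the 42 promoters of genes called higher (14.3%) and 1228 of the 8750 of tested genes. The GATA factor motif AGATAA was in 9.52% against 7.28%, the E-box (CACGTG) in 11.9% against 10.3%, the C/EBP motif (TTGCNNAA) in 11.9% against 9.27% and AP-1 (TGANTCA) in 7.14% against 5.50%. For the PU.1 motif (GAGGAAGT) the shares were 4.76% and 3.41%. Among genes called lower, PU.1 was in 3 of 22 promoters (13.6%), AP-1 in 3 (13.6%) and C/EBP in 4 (18.2%), while the antioxidant core was in 2 (9.09%), the E-box in 2 (9.09%) and GATA in 1 (4.55%). An AP-1 core joined to a MAF recognition element was in none of these promoters and in 0.309% of all, and the LXR direct repeat element was in none of the 8750. A match is a description of the letters and not of binding, and no test was made.

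Other genes called lower included Actb, Tmsb4x and Ahnak. Actb, beta-actin, stood at 18000, 16700 and 16000 CPM in general and 8990, 10800 and 8590 CPM in niche macrophages (-0.84 ± 0.15; edgeR adjusted p = 0.00642). Tmsb4x, which binds actin monomers, stood at 2370, 2060 and 2440 CPM against 1110, 1200 and 1120 CPM (-1.0 ± 0.18; edgeR adjusted p = 0.00536). Ahnak, a large scaffold protein beneath the membrane, stood at 449, 436 and 583 CPM against 64.6, 115 and 116 CPM (-2.31 ± 0.29; edgeR adjusted p = 0.000153). These 3 were called in each of the 6 fits without a library. Fitted on the 6 metastatic libraries alone, Actb and Tmsb4x did not pass (edgeR adjusted p = 0.330 and 0.0816). Tropomyosin 4, encoded by Tpm4, stood at 167, 204 and 156 CPM against 35.1, 8.74 and 23.7 CPM (-2.96 ± 0.60; edgeR adjusted p = 0.0175), and lost the call without niche replicate 2 or 3 or general replicate 2. Arpc5, a subunit of the actin-branching Arp2/3 complex, had -1.06 ± 0.24 (edgeR adjusted p = 0.0416) and Anxa2, a membrane-binding annexin, -2.06 ± 0.47 (edgeR adjusted p = 0.0401). Anxa2 was called in none of the 6 fits without a library and Arpc5 in 1. The membrane protein genes Cmtm6, Myadm, Tmem154 and Ifitm6 and the histone variant gene H2az1 were called lower as well, with log2 fold changes between -1.18 and -1.51. Of these, Ifitm6 kept its call in the 6 fits without a library, H2az1 in 2, Myadm and Tmem154 in 1 and Cmtm6 in 0.

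Of 7 tested plasma cell markers, 4 were called higher, and 6 had a log2 fold change above 0. Jchain, the joining chain of secreted antibodies, stood at 16.8, 22.1 and 12.9 CPM in general and 348, 1250 and 534 CPM in niche macrophages (log2 fold change 5.36 ± 0.58; edgeR adjusted p = 2.16e-05). For Ighm, the heavy chain of IgM, the values were 72.2, 84 and 56.6 CPM against 509, 1540 and 693 CPM (3.69 ± 0.46; edgeR adjusted p = 0.000136). The kappa light chain gene Igkc stood at 6.35, 3.8 and 32.1 CPM against 182, 1010 and 283 CPM (5.12 ± 0.87; edgeR adjusted p = 0.00328). Igha, the heavy chain of IgA, stood at 1.09, 1.45 and 1.06 CPM against 42.9, 87.9 and 9.79 CPM (5.28 ± 1.14; edgeR adjusted p = 0.0269). Niche replicate 2 was the highest library for all 4, whereas replicate 1 was the highest niche library for 58 of the 74 genes called higher. By limma-voom Ighm was the 1 plasma cell marker called (adjusted p = 0.0217), and Jchain, Igkc and Igha did not pass (limma-voom adjusted p = 0.0710, 0.263 and 0.218). The summed level of the 11 listed plasma cell markers, with 4 under the filter included, was between 371 and 461 CPM in general and between 1410 and 4250 CPM in niche macrophages. Jchain, Ighm, Igkc and Igha set this rise, and the other listed markers were nearly level in sum between the sorts. B cell genes had another order: Pax5, the B lineage transcription factor, stood at 0.62, 0.588 and 6.59 CPM against 22.3, 32.5 and 62.1 CPM (3.90 ± 0.91; edgeR adjusted p = 0.0474), highest in replicate 3. Pax5 and Igha were each called in 1 of the 6 fits without a library, and limma-voom called none of the 9 tested B cell markers (adjusted p = 0.129 for Pax5). Ms4a1, the B cell antigen CD20, had 33.3, 37.3 and 148 CPM in the niche libraries and did not pass (edgeR adjusted p = 0.210).

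**Figure D3:**
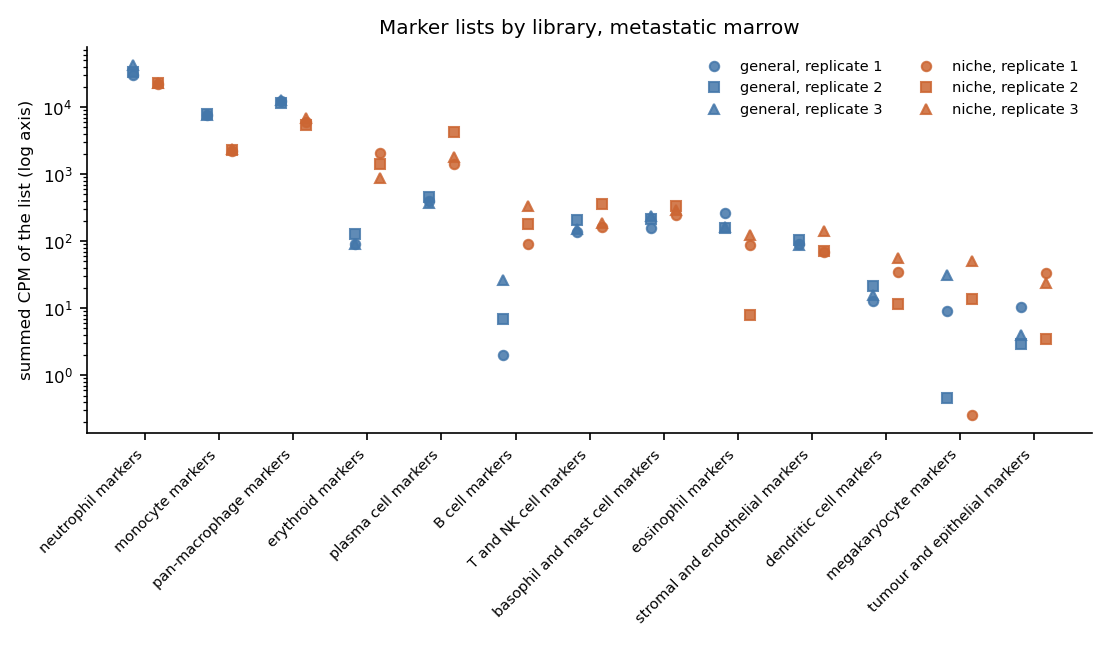
Summed CPM of each list of cell type markers (log axis) in the 6 libraries from metastatic marrow, with symbols for replicates and colours for populations. Erythroid, plasma cell and B cell sums are higher in every niche library than in any general library, as are basophil and mast cell sums by a smaller margin, while monocyte, neutrophil, eosinophil and pan-macrophage sums are lower.

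Among markers of the remaining cell types edgeR called none. No T and NK, basophil and mast cell, dendritic, megakaryocyte, stromal and endothelial or tumour and epithelial marker was called, out of 10, 8, 5, 4, 3 and 1 tested. With 0.831% of all tested genes called, no call in lists this short says nothing about the presence of those cells. An unadjusted p under 0.05 was found for 0, 1, 2, 0, 1 and 0 of them, against 8.60% of all tested genes. DESeq2 called 1 dendritic and 1 stromal marker higher, and limma-voom none of the 6 lists. The summed level of the 8 basophil and mast cell markers did not overlap between the sorts, at 158, 213 and 238 CPM in general and 243, 333 and 291 CPM in niche macrophages. Its part in the difference between the sorts was not tested. Cdh1, E-cadherin, the 1 epithelial marker tested, stood at 10.6, 2.98 and 3.95 CPM in general and 33.7, 3.41 and 23.5 CPM in niche macrophages.

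Of 13 tested mitochondrially encoded genes, 7 were called higher, against 0.574% of all tested genes. All 13 had niche libraries wholly above the general ones, against 8.34% of all tested genes, and the median was 1.68. mt-Nd5 stood at 369, 438 and 373 CPM in general and 1780, 1400 and 1190 CPM in niche macrophages (log2 fold change 1.89 ± 0.34; edgeR adjusted p = 0.00545), and mt-Nd4, another subunit of respiratory complex I, at 305, 213 and 242 CPM against 1410, 944 and 980 CPM (2.13 ± 0.41; edgeR adjusted p = 0.0117). The others called were mt-Nd1, mt-Nd6, mt-Cytb, mt-Co1 and mt-Atp6, with log2 fold changes between 1.46 and 2.22. In the 6 fits without a library, mt-Nd5 was called in all, mt-Nd4 in 4, mt-Atp6 in 2 and the other 4 in 1 each. The called pseudogene Gm10925 shares 100% of its 31-base words with mt-Atp6, and Gm28437 100% with mt-Co3, so their counts cannot be told from those of the mitochondrial genes. Gm10925 was called in 2 of those fits and Gm28437 in 0. The reads of mt-Nd6, which lies on the strand opposite to mt-Nd5, are uncertain in the same way where the genes overlap. The mitochondrial share of all counts was between 0.353% and 0.390% in general and between 1.24% and 1.63% in niche libraries.

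Some long noncoding RNAs of the nucleus were also higher. Malat1 stood at 3320, 3740 and 2660 CPM in general and 12300, 10400 and 7010 CPM in niche macrophages (1.61 ± 0.21; edgeR adjusted p = 0.000160). Xist, which coats the inactive X chromosome, stood at 1800, 2160 and 1330 CPM against 4890, 4210 and 3740 CPM (1.28 ± 0.24; edgeR adjusted p = 0.00764). Kcnq1ot1, an imprinted antisense transcript whose reads cannot be told from those of Kcnq1, had 1.82 ± 0.37 (edgeR adjusted p = 0.0177), a call lost in each of the 6 fits without a library. In the other direction, the small nucleolar RNA U3, which acts in ribosomal RNA processing, was lower. Rnu3a stood at 28300, 32100 and 20000 CPM against 12300, 12100 and 5530 CPM (-1.43 ± 0.24; edgeR adjusted p = 0.00364). Rnu3b2, Rnu3b3 and Rnu3b4 each hold 100% of the 31-base words of Rnu3b1, so the 4 copies are taken as 1 measurement. They stood at 59800, 55600 and 36300 CPM against 26600, 26000 and 11900 CPM (-1.23 ± 0.25; edgeR adjusted p = 0.0157). The lowest library of Rnu3a and of these copies in each population was replicate 3. With the 6 metastatic libraries alone neither passed (edgeR adjusted p = 0.201 for Rnu3a and 0.315 for Rnu3b1). Malat1 did not pass by limma-voom (adjusted p = 0.969), which weights libraries by their quality. Genes named as small nuclear, nucleolar and similar RNAs took between 19.8% and 27.8% of general and between 9.96% and 17.1% of niche counts. When haemoglobin, immunoglobulin, mitochondrial and small noncoding RNA genes were left out, 102 genes were called, 91 of them among the 107.

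The remaining called genes were the signalling genes Rgs1 (2.76 ± 0.55; edgeR adjusted p = 0.0157) and Marcks (1.83 ± 0.34; edgeR adjusted p = 0.00813), the cyclin gene Ccnd2 (2.04 ± 0.35; edgeR adjusted p = 0.00344), the immediate early gene Fosb (1.81 ± 0.42; edgeR adjusted p = 0.0419) and the tetraspanin gene Cd81 (1.39 ± 0.30; edgeR adjusted p = 0.0269). Further genes called higher were Tmcc2, Paqr9, Pld3, Tent5c, Xpo7, Lpin2, Lmbrd2, Wwp1 and Snx5, with log2 fold changes between 1.39 and 4.83. Of these genes, Ccnd2, Paqr9 and Xpo7 were called in each of the 6 fits without a library, and Rgs1, Fosb, Cd81, Pld3, Lpin2, Lmbrd2, Wwp1 and Snx5 in 1. Tmcc2 was called in 2, Marcks in 4 and Tent5c in 5.

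**Figure D4:**
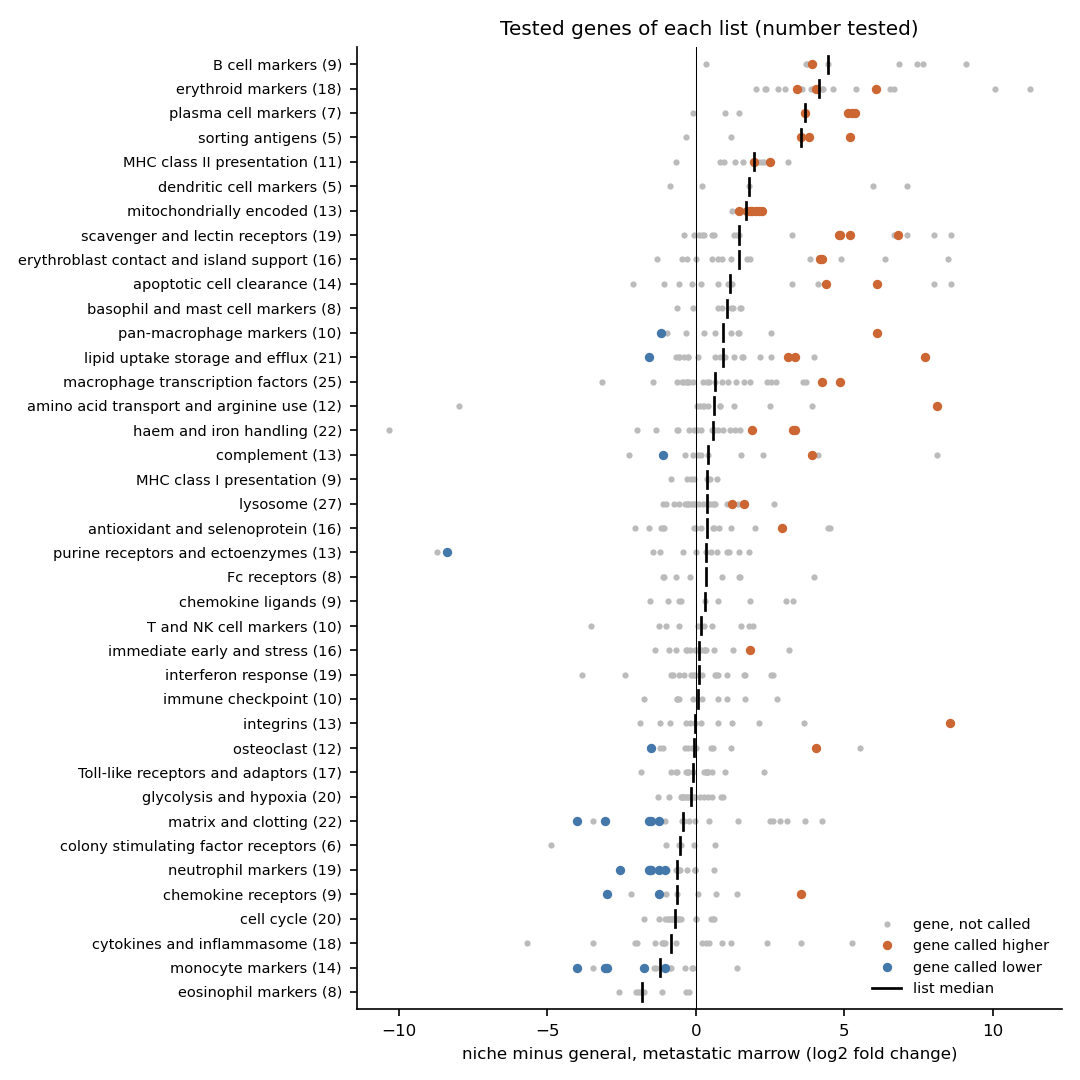
Log2 fold change of niche minus general macrophages in metastatic marrow for every tested gene of each list with at least 5 tested genes (number in brackets), with called genes coloured and the list median as a black bar. Erythroid, B cell and plasma cell markers lie at the top with medians from 3.69 to 4.47, and eosinophil and monocyte markers at the bottom with medians of -1.81 and -1.19.

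Several immune lists held no gene called by edgeR, which is near the share of 0.831% over all tested genes for lists this short. Over all tested genes, 8.60% had an unadjusted p under 0.05. Among 18 cytokine and inflammasome genes the median was -0.84, 2 were lower at an unadjusted p under 0.05, and DESeq2 and limma-voom called none. Il1b, the inflammatory cytokine interleukin 1 beta, stood at 27.2, 75.7 and 82 CPM in general and 12.9, 14.2 and 20.2 CPM in niche macrophages, without overlap (-1.97 ± 0.89; edgeR adjusted p = 0.557). Of 20 cell cycle genes, 4 were lower at an unadjusted p under 0.05, none was called by DESeq2 and 1 was called lower by limma-voom, with a median of -0.70. Mki67 and Top2a, markers of dividing cells, stood at 777, 686 and 1330 CPM against 477, 574 and 682 CPM and at 884, 789 and 816 CPM against 544, 655 and 417 CPM (edgeR adjusted p = 0.487 for both). The niche libraries lay below the general ones for both genes. Of 19 interferon response genes 1 was lower at an unadjusted p under 0.05, of 17 Toll-like receptors and adaptors 1 was higher and 1 lower, and of 20 glycolysis and hypoxia genes 1 was lower, with medians of 0.11, -0.08 and -0.17 and no call by DESeq2 or limma-voom. Of 10 immune checkpoint genes, 2 were higher and 1 lower at that threshold, and DESeq2 and limma-voom each called 1 higher. Sirpa, the receptor for the CD47 signal that protects cells from being engulfed, stood at 275, 251 and 283 CPM against 461, 462 and 435 CPM, without overlap, and did not pass (0.75 ± 0.23; edgeR adjusted p = 0.267). Cd274, which encodes PD-L1, stood at 29.1, 28.7 and 22.4 CPM against 84.9, 81.6 and 88.6 CPM, also without overlap (1.67 ± 0.88; edgeR adjusted p = 0.644).

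The same comparison in normal marrow called 318 genes (2.47% of those tested), and 87 of the 107 genes were among them. All 107 had the same sign in both states, but the share of all tested genes with the same sign was not counted. The 20 genes called in metastatic and not in normal marrow included the 5 U3 genes, Fabp4, Tpm4, Retnlg, Alox5ap, Anxa2, Arpc5, H2az1 and P2ry1. P2ry1 stood at 44.2, 20.1 and 40.5 CPM in general and 40.3, 0.646 and 20.8 CPM in niche cells of normal marrow, where the log2 fold change was -0.76 ± 1.17. Normal niche library B was far below the general range though above the metastatic niche libraries, and libraries A and C lay within the general range. On the log2 scale, Arpc5 and H2az1 differed by -0.04 ± 0.24 and -0.13 ± 0.27 between the sorts of normal marrow, against -1.06 and -1.36 in metastatic marrow.

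Whether these differences depend on the marrow state was tested as an interaction. None of 12882 genes was called by edgeR (0%), with 1016 at an unadjusted p under 0.05 and a smallest adjusted p of 0.452, while limma-voom called 0 and DESeq2 410 (3.18%). A difference particular to metastatic marrow was therefore not shown for any gene by edgeR. The interaction of P2ry1 was -7.60 ± 1.86 (log2, unadjusted p = 0.000623), that of H2az1 -1.23 ± 0.38 (unadjusted p = 0.00443) and that of Arpc5 -1.02 ± 0.34 (unadjusted p = 0.00774), with edgeR adjusted p-values of 0.452, 0.452 and 0.460. The smallest interaction p-values belonged to Paqr9, Sash1 and Lhfpl2, whose niche to general difference went from 9.21, 8.43 and -6.84 in normal to 4.83, 2.29 and 0.27 in metastatic marrow on the log2 scale (edgeR adjusted p = 0.452 each). For Paqr9 the niche libraries stood at 365, 282 and 244 CPM in normal and 106, 45.6 and 56.4 CPM in metastatic marrow. For Vcam1 the difference was 1.27 smaller on the log2 scale in metastatic marrow, at -1.27 ± 0.37 (edgeR adjusted p = 0.452).

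**Figure D5:**
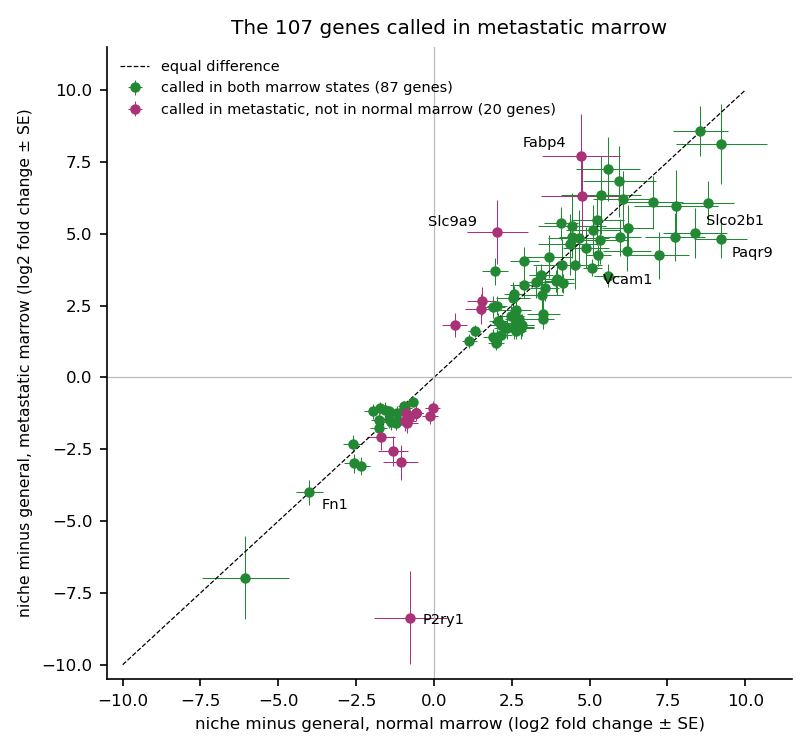
Log2 fold change of niche minus general macrophages with its SE in metastatic marrow (vertical axis) and normal marrow (horizontal axis) for the 107 genes called in metastatic marrow, with the line of equal difference dashed. All points share their sign between the axes, and P2ry1 lies farthest from the line among genes called lower.

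The libraries of the niche sort differed among themselves in a pattern that ran through the called genes. Replicate 1 was the highest niche library for 58 of the 74 genes called higher, replicate 2 for 12 and replicate 3 for 4, while over all tested genes the numbers were 4753, 4156 and 3973. Replicate 3 was the lowest niche library for 41 of the 74. In the general libraries the highest value fell on replicates 1, 2 and 3 for 26, 26 and 22 of the 74 genes. Among genes called higher that were neither plasma cell, erythroid nor mitochondrial, replicate 1 was highest for 47 of 58. Replicate 2 was highest for the 4 plasma cell genes and replicate 1 for the 9 mitochondrial genes and copies.

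The called genes also differed in length, which is given as a description. The longest annotated transcript of a gene had a median of 4248 bases over 58 nuclear protein-coding genes called higher, 2680 bases over 27 called lower and 3534 bases over 10338 tested. The quartiles were 2527 and 6352 bases for genes called higher and 1615 and 3919 bases for those called lower.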

How the data were processed

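RNA was sequenced after depletion of ribosomal RNA, per the labels' protocols. The authors deposited expected counts per gene symbol, of which 73.9% were whole numbers. The submitters' processing notes name mm10, STAR 2.7.3a, Partek, DESeq2 1.40.2 and R 4.3.1, without roles. The counting program, annotation and strandedness are not given in the sources used here.

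Counts were rounded and filtered with filterByExpr in edgeR 4.0.16 (R 4.3.3), scaled by TMM and fitted with 4 group means over all 12 libraries. Each gene was tested with the quasi-likelihood F-test, with Benjamini-Hochberg adjustment over 12882 genes and a threshold of 0.05. Standard errors come from the F statistic. The members and the 42 gene lists were chosen with earlier results of these data known, and lists are described without a test. Named genes were the sorting antigens, the called, non-overlapping genes averaging 10 CPM or more with the 14 top increases and the 14 top decreases, up to 4 members per list by p, other called genes, the 3 smallest interaction p-values, and the most abundant markers of other cell types; some genes under this rule are not reported here.

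Columns of niche macrophages from normal marrow carry numbers that differ from their titles and are called A, B and C. No library of the 2 metastatic groups appeared to be a duplicate deposit of another, since no pair within a group had a chi-square of its counts under 139 per degree of freedom; this says nothing about the groups. Whether same-numbered libraries of the 2 sorts came from the same mice was not settled, and the main fit used no block. Alternatives were RLE scaling, library size alone, 2 other filters, DESeq2 1.42.0, limma-voom (limma 3.58.1) with quality weights, robust dispersion, a 2-fold minimum, removal of haemoglobin, immunoglobulin, mitochondrial and small RNA genes, the 6 metastatic libraries alone, a replicate block, and leaving out each library. The procedure was also run on simulated counts, whose outcome is not reported here, so the share of true changes that it misses is not given. A floor of 3 counts was between 0.109 and 0.151 CPM in the 6 libraries and covers counting error only. Coordinates and promoters are from RefSeq (GRCm38.p6), and gene types and transcript lengths from GENCODE M21, which matched 18026 of 18467 symbols.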

Additional observations from a re-analysis of the deposited data

How the results depend on the processing

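The count of 107 genes was 480 by DESeq2, 178 by limma-voom with quality weights and 44 with a 2-fold minimum, and lay between 66 and 83 when 1 library was left out. The other settings gave between 97 and 126. Library size alone moved the split from 74 higher and 33 lower to 96 and 20, and the filter of 10 counts in every library to 64 and 43. The interaction count of 0 was 410 by DESeq2 and between 0 and 1 when 1 library was left out, the 1 being Paqr9 without general replicate 2 (-4.89 on the log2 scale; edgeR adjusted p = 0.0260), and 0 under the other settings. Among 143 named genes, 1 changed sign, the uncalled Lhfpl2, at -0.02 without general replicate 2 and between -0.02 and 0.52 over the fits that left out a library. The cause of these changes was not tested.

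Replicate numbers are shared by the 2 sorts in the titles. Deviations from the group means had correlations of -0.002, 0.022 and 0.020 between same-numbered libraries, and between -0.026 and 0.008 for the other pairs. With replicates that differed this widely, these values cannot decide whether same-numbered libraries share a mouse. With the replicate block on the 6 metastatic libraries, 119 genes were called, 90 higher and 29 lower, and 81 of the 107 kept their call. Without the block the same 6 libraries gave 97 calls and kept 73. None of the 495 tested genes with a mean under 1 CPM and none of the 4479 between 1 and 10 CPM was called, and which differences could be detected at those levels was not tested.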
